A study of Rattus norvegicus with 10 samples.

Results

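The genes examined here move calcium into, store it in and release it from the sarcoplasmic reticulum of muscle fibres. The members were every row of the deposited table whose symbol was Casq1, Casq2, Atp2a1, Atp2a2, Ryr1, Sln, Pln, Cacna1s or Trdn. Of these 9 symbols, 6 had rows, 8 rows among 17221 transcripts in all, and 6 of the 8 rows passed the filter on low values, with 1 row for each of Casq1, Casq2, Trdn, Sln, Pln and Atp2a2. Atp2a1, Ryr1 and Cacna1s, which encode the fast fibre pump, the release channel and its voltage sensor, were not analysed here.

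Muscle lying under the skin was sampled from female Wistar rats in which immunisation with bovine type II collagen had brought on arthritis, which models human rheumatoid disease (RA in the group names). The 10 libraries came from 10 rats in 5 groups of 2: arthritic rats before any therapy (RA_0), rats 1 h or 34 days after acupuncture (AP_1h and AP_34d), and rats 1 h or 34 days after placebo (PLA_1h and PLA_34d). Acupuncture was the puncture and twirling of a short needle at points of the lower back and the hind leg, and placebo was a saline injection into the peritoneum. Acupuncture was repeated every other day and the injection weekly, so the 34 day groups differ from the 1 h groups in the number of treatments as well as in time. All 5 groups carried the induced arthritis and were sampled under general anaesthesia, so no healthy animals enter any comparison. The labels give no age, and do not say which of the stimulated points or which named muscle a specimen came from.

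In skeletal muscle an action potential opens the release channel of the sarcoplasmic reticulum, and the calcium that flows out makes the fibre contract. Calsequestrin, of which Casq1 is the skeletal and Casq2 the cardiac and slow fibre form, binds calcium inside the reticulum, and triadin (Trdn) anchors it to the release channel. The SERCA pumps, encoded by Atp2a1 in fast fibres and Atp2a2 in slow fibres and the heart, return the calcium to the store, and the small membrane proteins sarcolipin (Sln) and phospholamban (Pln) inhibit them.

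Levels are given as CPM, the reads of a transcript relative to all assigned reads of its library, as scaled between libraries by the submitters. The libraries held 5371687 to 8899521 reads assigned to transcripts. At these depths 3 reads, about the upper 95% limit of the expected count where 0 is seen, equalled 0.297 to 0.716 CPM. This limit covers counting error only. The muscle label was checked against marker genes. Skeletal actin Acta1 lay at 30415 to 134964 CPM and muscle creatine kinase Ckm at 16181 to 56881 CPM. Of 8 heart markers, Nppa, Nppb and Myl7 lay at 0 to 0.239 CPM, and Tnni3, Mybpc3 and Ryr2 reached at most 0.446 CPM. Tnnt2 lay at 0.973 to 12.7 CPM. Myh6 lay at 96.4 to 2573 CPM and was high in the libraries where the slow fibre myosin Myh7 was high, a near-identical neighbouring gene, so its level is uncertain. Cd79b, a marker of B cells, reached 72.0 CPM in PLA_34d replicate 1 and was at most 1.82 CPM in the other libraries. Cd3e, a marker of T cells, reached 36.3 CPM there and was at most 4.22 CPM elsewhere, so PLA_34d replicate 1 stood apart in these lymphocyte genes. The leukocyte markers as a list summed to 912 CPM in PLA_34d replicate 1 and 499 CPM in AP_1h replicate 1, against 103 to 230.3 CPM in the other 8 libraries. Cd74, found in antigen presenting cells, was at 442 CPM in AP_1h replicate 1 and the macrophage marker Cd68 at 24.0 CPM, while outside this library and PLA_34d replicate 1 they were at most 215 and 10.9 CPM. Ptprc, found on all leukocytes, had several rows, all listed at 0. Reads shared by overlapping transcripts were left out of the counts, so these zeros do not show that leukocytes were absent. Transcripts differ in length and no exon lengths were used, so levels are compared between libraries and never between genes.

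Casq1 (NM_001159594, rn4 chr13:88200506-88210418, minus strand) was the most deeply read member, with 307034 reads over the 10 libraries. It lay at 5408 and 4065 CPM in the RA_0 libraries (replicates 1 and 2, the order used throughout), at 2984 and 8778 in AP_1h, at 4150.4 and 6031 in PLA_1h, at 3531 and 2671 in AP_34d, and at 2642 and 4395 in PLA_34d. The highest level stood in AP_1h replicate 2 and the lowest in PLA_34d replicate 1, and both AP_34d libraries lay below both RA_0 libraries. The spread within AP_1h alone, 5881 ± 4097 CPM (SD, n = 2), was larger than any difference between group means.

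Casq2 (NM_017131, rn4 chr2:197182938-197239201, plus strand) varied 8.08-fold between its lowest and highest library, against 3.32-fold for Casq1. Its levels were 147 and 127 CPM in RA_0, 29.8 and 74.9 in AP_1h, 152 and 25.8 in PLA_1h, 83.0 and 21.7 in AP_34d, and 175 and 35.3 in PLA_34d. The replicates of a group were apart by several fold in PLA_1h, AP_34d and PLA_34d, while the RA_0 replicates were close together. Both AP_1h libraries and both AP_34d libraries lay below both RA_0 libraries, whereas the placebo libraries fell on either side.

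The calsequestrin genes and Atp2a2 are shown by the 250 bases before their start. Casq2 and the only Atp2a2 row with reads, a transcript with no protein, varied together over the libraries (r = 0.74, n = 10, a description over libraries that share their scaling). Casq1 did not vary with Casq2 (r = 0.06). The sequences are RefSeq's, build GRCr8, and are given 5′ to 3′ along the gene. They lie at chr13:87212711-87212960 on the minus strand for Casq1, at chr2:192214306-192214555 on the plus strand for Casq2, and at chr12:39733269-39733518 on the plus strand for Atp2a2. Capitals mark E-boxes, the letters CANNTG that the myogenic factors can bind, and in Casq2 also a MEF2 site, read by factors of muscle gene control.
Casq1: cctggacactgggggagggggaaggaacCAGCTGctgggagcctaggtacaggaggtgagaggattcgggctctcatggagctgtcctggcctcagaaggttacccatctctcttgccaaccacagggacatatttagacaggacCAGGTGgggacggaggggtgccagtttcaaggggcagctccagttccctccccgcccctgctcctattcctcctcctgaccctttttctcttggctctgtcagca
Casq2: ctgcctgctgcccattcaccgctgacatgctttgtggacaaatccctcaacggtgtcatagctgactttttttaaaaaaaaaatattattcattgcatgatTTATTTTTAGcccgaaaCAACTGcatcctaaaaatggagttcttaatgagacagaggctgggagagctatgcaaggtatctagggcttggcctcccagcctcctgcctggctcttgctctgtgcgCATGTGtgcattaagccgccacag
Atp2a2: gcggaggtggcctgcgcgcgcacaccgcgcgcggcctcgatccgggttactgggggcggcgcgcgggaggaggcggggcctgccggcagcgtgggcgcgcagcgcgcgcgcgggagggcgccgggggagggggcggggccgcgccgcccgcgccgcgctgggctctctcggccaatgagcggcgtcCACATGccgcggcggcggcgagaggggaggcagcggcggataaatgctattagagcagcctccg
The Casq2 stretch held a match to the MEF2 site at -149 from the start, a match that 2.96% of 33469 rat promoter stretches of this length hold, and E-boxes at -132 and -24. The E-boxes of Casq1 began at -222 and -105 and that of Atp2a2 at -64, and 65.5% of the promoter stretches hold at least 1. None of these stretches held the TATA box letters TATAAA, which 12.9% hold. Both strands were searched, and the motifs did not overlap. G and C made up 59.6% of the Casq1 stretch, 46.4% of the Casq2 stretch and 80.0% of the Atp2a2 stretch, against a median of 51.2% over all of them. These matches are descriptions of the letters and not measurements of binding.

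Trdn (NM_021666, rn4 chr1:24514752-24977515, minus strand) had 1325 and 1405 CPM in RA_0. It had 1076 and 4432 CPM in AP_1h, 2781 and 1571 in PLA_1h, 1408 and 2591 in AP_34d, and 1639 and 1881 in PLA_34d. The RA_0 libraries were low and close together, and both libraries of PLA_1h, AP_34d and PLA_34d lay above them, by as little as 2.47 CPM for the nearest pair of values in AP_34d. AP_1h held both the lowest and the highest Trdn level of the series. AP_1h replicate 2 was also the highest library for Casq1.

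Atp2a2 had 3 rows that cover the same locus (rn4 chr12:35266600-35316237 for the longest, plus strand). NM_001110139 and NM_001110823, the coding transcripts, were listed at 0 in every library, and the reads stood on NR_027839, a transcript with no protein. Reads were counted by transcript, and a read that could belong to several overlapping transcripts was left out, so the NR_027839 values cover only reads particular to that transcript and are not the level of the slow pump. There were 542 such reads in all, from 10 in PLA_1h replicate 2 to 185 in PLA_34d replicate 1. The levels of NR_027839 were 12.6 and 17.8 CPM in RA_0, 3.68 and 2.94 in AP_1h, 5.65 and 1.75 in PLA_1h, 3.32 and 4.63 in AP_34d, and 20.8 and 1.99 in PLA_34d. RA_0 and PLA_34d replicate 1 were high, and every other library lay below the lower RA_0 value.

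Sln (NM_001013247, rn4 chr8:57314470-57318717, plus strand) had 205 and 76.6 CPM in RA_0, 147 and 212 in AP_1h, and 216 and 167 in PLA_1h. At 34 days it had 109 and 43.0 CPM in AP_34d and 59.6 and 84.9 in PLA_34d. The 1 h libraries were all higher than the 34 day libraries under the same treatment, and every 1 h library was higher than all 4 libraries at 34 days. The split over both treatments was not among the planned comparisons. How many of all transcripts split in that way was not counted. The RA_0 libraries spanned nearly the whole range, so neither time stood apart from the level before therapy.

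Pln (NM_022707, rn4 chr20:32000371-32008558, plus strand) was read 374 times in all, at most 59 times in a library. Its levels were 14.1 and 7.87 CPM in RA_0, 2.92 and 3.22 in AP_1h, 3.97 and 6.49 in PLA_1h, 7.81 and 4.33 in AP_34d, and 2.69 and 5.97 in PLA_34d. All 8 treated libraries were below both RA_0 libraries, the nearest by 0.0593 CPM, which is less than 1 read. The span of the locus overlaps that of a transcript on the opposite strand, LOC100365935 (today Cep85l), and the library kit does not mark strand. Whether their exons overlap was not examined, and any read shared by both would have been left out of the counts.

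**Figure D1:**
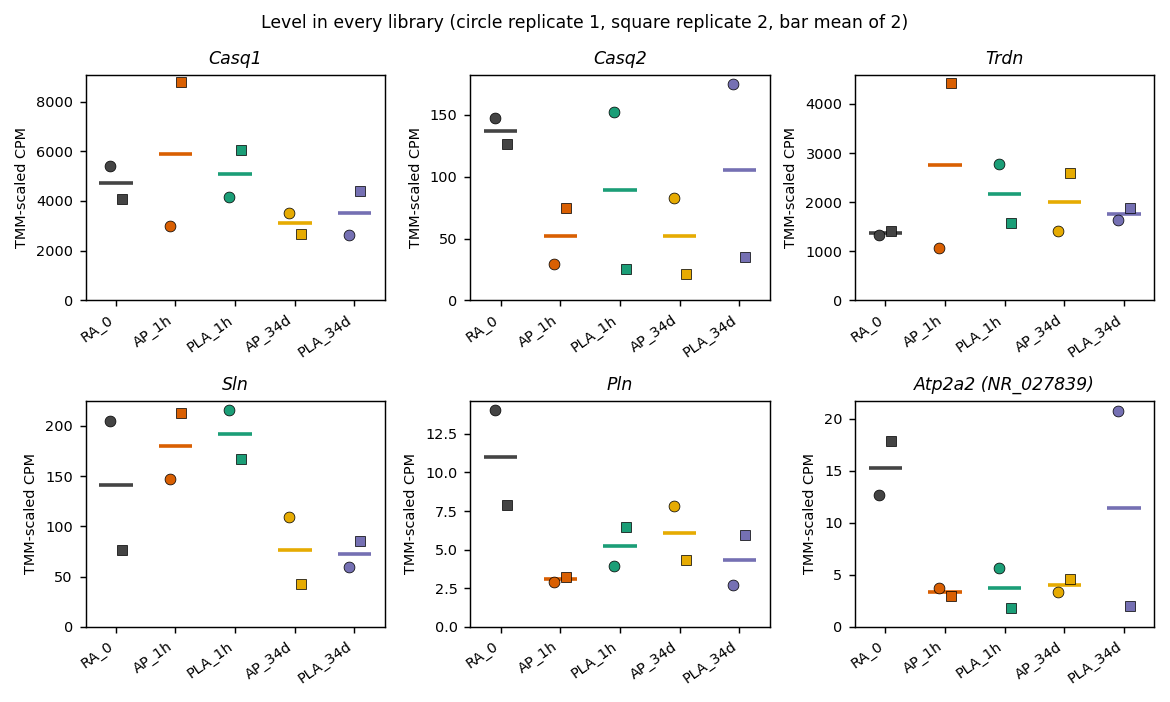
Level of each member (TMM-scaled CPM, linear axis from 0) in every library by group; circles are replicate 1, squares replicate 2 and bars the mean of 2. Sln was higher in all 1 h than in all 34 day libraries, a split that was not counted over all transcripts. Pln was highest in RA_0, and the Casq2 and Atp2a2 replicates of PLA_34d lay far apart.

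The first question was how each treated group differed from RA_0. The RA_0 libraries came from other rats, and no untreated group at 1 h or 34 days is among these libraries. A difference from RA_0 therefore cannot be assigned to treatment rather than to time, the course of the arthritis or the rats. By limma on log2(CPM + 1) over 10259 transcripts, with Benjamini-Hochberg adjustment, 0 of 6 members differed from RA_0 in any of the 4 treated groups. The same test called 0.0292% of all transcripts in AP_1h against RA_0 and 0% in the other 3 comparisons with RA_0. In AP_1h, 2 of 6 members, Atp2a2 and Pln, had an unadjusted p under 0.05, against 8.89% of all transcripts. In PLA_1h and PLA_34d this was 1 of 6 members each, Atp2a2 and Pln respectively, against 2.59% and 3.2%, and in AP_34d it was 0 of 6 against 4.77%. limma-voom, edgeR's quasi-likelihood test and DESeq2 on reads recovered from the CPM also called 0 members, where the first and second called 0% of all transcripts and DESeq2 called 1.62% in AP_1h, 0.0975% in PLA_1h, 0.322% in AP_34d and 0.37% in PLA_34d. The values below are therefore given as measured differences that did not pass the test.

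Pln was lower by the largest margin relative to its error in AP_1h, at 3.07 ± 0.212 CPM (SD, n = 2) against 10.97 ± 4.39 in RA_0. The log2 change was -1.51 (SE 0.45, 95% interval -2.52 to -0.50, limma adjusted p = 0.33). In PLA_34d the Pln change against RA_0 was -1.19 (SE 0.45, limma adjusted p = 0.914), and -0.73 without PLA_34d replicate 1, the library with high Cd79b and Cd3e. Without AP_1h replicate 1, whose leukocyte markers were high, the AP_1h change was -1.45. Both changes met the size and unadjusted p rule the study used, at least 2-fold with p under 0.05. Pln in PLA_1h and AP_34d gave log2 changes of -0.92 and -0.75.

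For the Atp2a2 transcript NR_027839 the log2 change against RA_0 was -1.90 in AP_1h (SE 0.77, limma adjusted p = 0.524) and -1.90 in PLA_1h (SE 0.77, limma adjusted p = 1.00), both within the study's rule. It was -1.70 in AP_34d (SE 0.77, limma adjusted p = 0.967), with all 6 of these treated libraries below both RA_0 libraries. The AP_1h difference passed the test when only the AP_1h and RA_0 libraries were fitted (limma adjusted p = 0.0353), a fit that called 1.05% of all transcripts. Without AP_1h replicate 1 it was -2.02. Over all settings tried the adjusted p of this difference ran from 0.0353 to 1.00. PLA_34d, whose replicates were at 20.8 and 1.99 CPM, gave -0.99 with an interval from -2.71 to 0.73, and -2.42 without PLA_34d replicate 1 (limma adjusted p = 1.00).

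The Casq2 differences from RA_0 moved with single libraries. Its log2 change against RA_0 was -1.51 in AP_1h (SE 0.95, limma adjusted p = 0.696), and -0.86 without AP_1h replicate 1. It was -1.66 in AP_34d (SE 0.95, limma adjusted p = 0.967), -0.71 without AP_34d replicate 2 and -2.60 without AP_34d replicate 1. In PLA_1h it was -1.10 (SE 0.95, limma adjusted p = 1.00), and without PLA_1h replicate 2 it turned to 0.16. Casq1 moved by -0.61 to 0.13 and Trdn by 0.36 to 0.68 on the log2 scale against RA_0, with intervals that all included 0. Sln stood at 0.49 in AP_1h and 0.59 in PLA_1h, and at -0.86 in AP_34d and -0.81 in PLA_34d.

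The number of members whose treated libraries did not overlap the RA_0 libraries was read against all transcripts. In AP_1h, 3 of 6 members lay below RA_0 and 0 above, against 21% and 20.6% of transcripts. In AP_34d, 4 of 6 lay below and 1 above, against 15.9% and 16.4%. In PLA_1h, 2 lay below and 1 above, against 13.6% and 15.8%, and in PLA_34d, 1 lay below and 1 above, against 14.2% and 16.8%. These 4 comparisons share the same RA_0 libraries. Under the study's rule 2 of 6 members were lower in AP_1h, against 3.59% of transcripts, 1 in PLA_1h, against 0.673%, 0 in AP_34d, against 1.33%, and 1 in PLA_34d, against 0.439%.

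**Figure D2:**
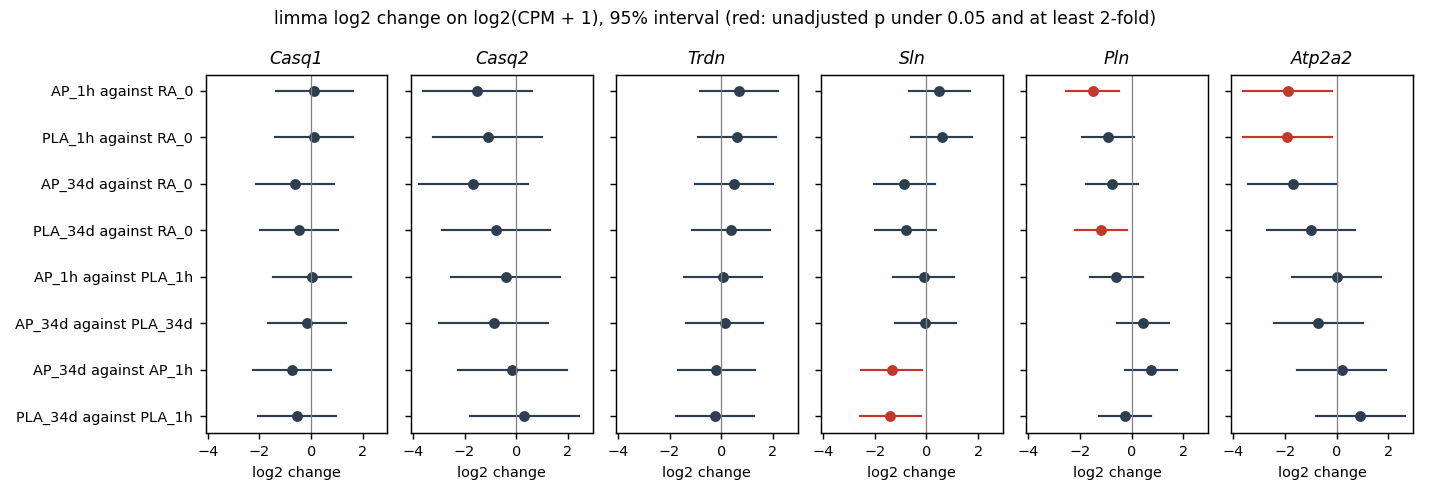
limma log2 change (points, on log2(CPM + 1)) with 95% interval (lines) for each member in 8 comparisons, red where the unadjusted p was under 0.05 and the change at least 2-fold. Pln and Atp2a2 against RA_0 and Sln between the times are red, and no change passed the adjusted test.

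The second question was whether acupuncture and placebo differed at the same time. At 1 h and at 34 days 0 of 6 members were called, as were 0% of all transcripts, and 0 members had an unadjusted p under 0.05 in either, against 4.04% and 5.47% of transcripts. The member log2 changes ran from -0.59 (Pln) to 0.06 (Trdn) at 1 h and from -0.87 (Casq2) to 0.43 (Pln) at 34 days. Only Pln did not overlap between the groups at 1 h, where it was lower after acupuncture (16.7% of transcripts were apart in that direction and 13.9% in the other), and 0 members were apart at 34 days (16% higher and 15% lower among all transcripts). Averaged over both times the changes ran from -0.64 (Casq2, 95% interval -2.13 to 0.85) to 0.09 (Trdn, 95% interval -0.97 to 1.15), again with 0 members called and 0 with an unadjusted p under 0.05, against 0% and 5.72% of transcripts. The intervals leave room for differences of 2-fold or more in several members. Without PLA_34d replicate 1 the change at 34 days was 0.27 for Casq2, 0.72 for Atp2a2 and -0.02 for Pln, where it had been -0.87, -0.71 and 0.43.

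For Pln the acupuncture against placebo change differed between the times by 1.02 on the log2 scale (SE 0.64, limma adjusted p = 1.00), and by 0.56 without PLA_34d replicate 1. The same difference was -0.71 for Atp2a2 and -0.47 for Casq2. Without PLA_34d replicate 1 both turned positive, to 0.72 and 0.67. With all libraries 0 members were called in this interaction, where 0% of transcripts were and 4.05% had an unadjusted p under 0.05 (0 of 6 members). Against placebo Pln stood at -0.59 at 1 h and at 0.43 at 34 days, neither passing the test.

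The third question was how the 34 day course compared with 1 h under each treatment. Sln was lower at 34 days than at 1 h after both treatments: 76.0 ± 46.6 against 180 ± 46.5 CPM after acupuncture and 72.2 ± 17.9 against 192 ± 34.7 after placebo (SD, n = 2 each). The log2 changes were -1.35 (SE 0.53, limma adjusted p = 0.896) and -1.41 (SE 0.53, limma adjusted p = 0.999), so neither passed the adjusted test, though both met the study's rule, which 1.38% and 0.76% of transcripts met downward. Without AP_34d replicate 2 the acupuncture change was -0.69, under 2-fold, and without AP_34d replicate 1 it was -2.01, while leaving out single placebo libraries moved the placebo change between -1.15 and -1.66. The changes after both treatments differed from each other by 0.05 (interval -1.62 to 1.73). In the comparison of times, 0 of 6 members were called after either treatment, 0% of all transcripts were, and 1 of 6 had an unadjusted p under 0.05, against 5.35% after acupuncture and 2.96% after placebo. Pln was apart upward between the acupuncture times (2.92 and 3.22 against 7.81 and 4.33 CPM, 17.1% of transcripts), and Sln was apart downward in both (16% and 14.4%), while 0 members were apart upward between the placebo times (12.7%). The test for any difference between the 5 groups gave limma adjusted p from 0.987 to 0.990 over the members and called 0 of 6, with 0% of transcripts called, and 0 members had an unadjusted p under 0.05, against 4.98%.

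Because Casq2 and the Atp2a2 pump belong to slow fibres, the libraries were also described by a slow fibre score, the mean log2(CPM + 1) of 9 transcripts of 8 slow sarcomere genes such as Myh7. The Atp2a2 values are those of NR_027839, which are not the level of that pump. In a bulk sample, fewer slow fibres, less slow fibre RNA per fibre and a specimen taken from another muscle cannot be told apart, since the labels do not name the muscle. The score was 9.95 and 8.80 in RA_0, 6.12 and 6.19 in AP_1h, 7.67 and 6.73 in PLA_1h, 9.18 and 6.72 in AP_34d, and 9.53 and 6.47 in PLA_34d. It was thus high in both RA_0 libraries and low in both AP_1h libraries, while each other group held a higher and a lower library. Summed, the slow genes made up 21157 and 10473 CPM in RA_0 and 1062 and 1224 CPM in AP_1h. Their median log2 change against RA_0 was -3.52 in AP_1h, where 8 of 9 met the study's rule and 0 were called, -2.35 in PLA_1h, -1.60 in AP_34d and -1.62 in PLA_34d.

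Casq2 had the highest r with this score of the 6 members. In all 5 groups the replicate with the higher slow fibre score had the higher Casq2 level. Over the 10 libraries Pearson's r was 0.78 (permutation p = 0.0149, adjusted over 12 relations 0.0664) and Spearman's rho 0.70 (permutation p = 0.0309, adjusted 0.175). Without the 2 libraries farthest from the median score r was 0.66 (permutation p = 0.0932, n = 8). Neither form passed the threshold after adjustment. The permutations here and below moved libraries freely between groups, so their p do not set a relation apart from differences between groups. Over deviations from the group means, as a description, r with this score was 0.83 for Casq2 and 0.63 for NR_027839 of Atp2a2. The scores fell mainly into a lower range of 5 libraries and an upper range of 4 with 1 library between, too few in each to give r within them. When the slow fibre score entered the fit as a covariate, a setting chosen after seeing the data, the Casq2 change in AP_1h turned from -1.51 to 1.11 and that in PLA_1h from -1.10 to 0.66, neither passing the test. The score did not overlap between RA_0 and either of these groups. The adjusted changes therefore rest on extrapolation, and no conclusion about fibre makeup is drawn from them.

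The Atp2a2 transcript NR_027839 gave r = 0.76 with the slow fibre score (permutation p = 0.0131, adjusted 0.0664) and rho = 0.61 (permutation p = 0.0670, adjusted 0.201). Without the 2 farthest libraries r was 0.57 (permutation p = 0.132, n = 8). Within groups its order matched that of the score in 2 of 5 groups. With the score as covariate its AP_1h change kept its sign at -0.35, from -1.90, under the same limit of scores that do not overlap.

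A fast fibre score was made likewise from 8 fast sarcomere genes such as Myh4 and Myh1. These genes did not move together: in AP_1h against RA_0 their log2 changes ran from -1.96 to 0.80, 3 above 0 and 5 below. The mean of 8 general skeletal muscle markers such as Acta1 was, like the fast score, highest in RA_0 replicate 1 and PLA_1h replicate 2. Both were lowest in AP_1h replicate 1 and PLA_34d replicate 1. Whether the relations below follow fast fibres or muscle content was not tested. Casq1 gave r = 0.67 with the fast score (permutation p = 0.0321, adjusted 0.0964), rho = 0.66 (permutation p = 0.0437, adjusted 0.175) and, without the 2 farthest libraries, r = 0.47 (permutation p = 0.249, n = 8). Pln gave r = 0.73 (permutation p = 0.0166, adjusted 0.0664), rho = 0.76 (permutation p = 0.0145, adjusted 0.174) and r = 0.53 without them (permutation p = 0.179, n = 8). In 5 of 5 groups the replicate with the higher fast score had the higher Casq1 and the higher Pln level. These pairs share the scaling of their library, and under quantile normalization the Casq1 relation turned to r = -0.31. Sln and Trdn gave r between -0.41 and 0.40 with either score.

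**Figure D3:**
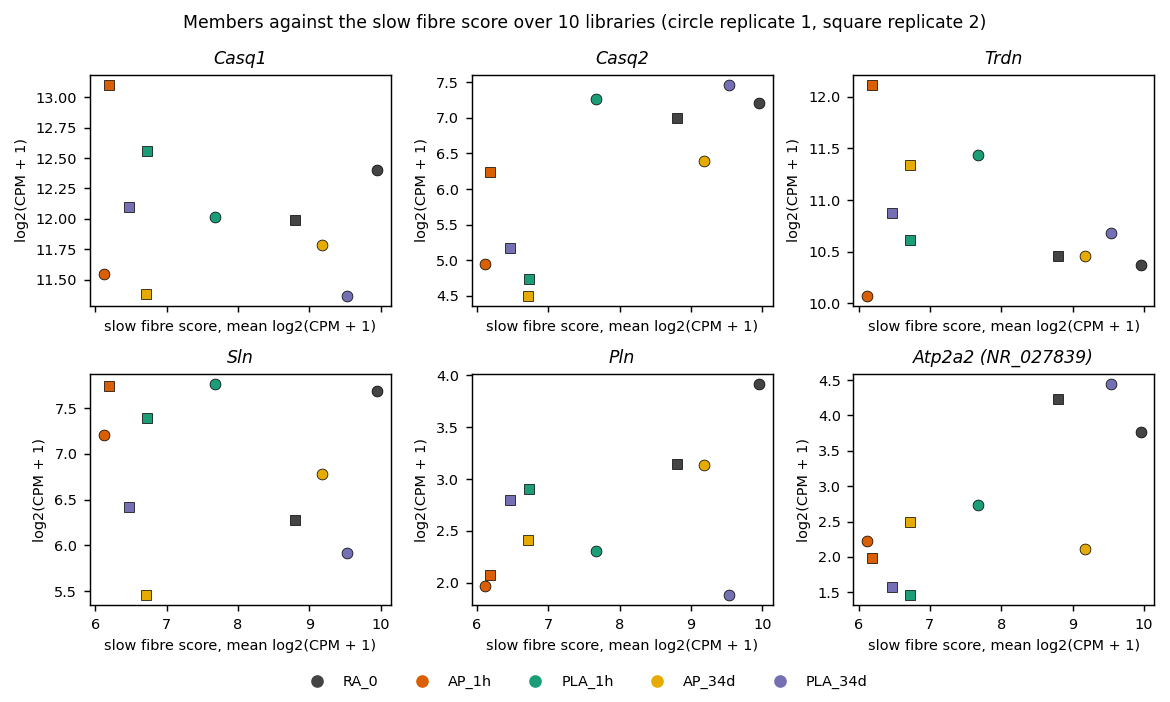
Each member's log2(CPM + 1) against the slow fibre score (mean log2(CPM + 1) of 9 transcripts) over 10 libraries, coloured by group; circles are replicate 1 and squares replicate 2. Casq2 (r = 0.78) and the Atp2a2 transcript NR_027839 (r = 0.76), which is not the level of the slow pump, were higher in libraries of high score, and Casq1, Sln and Trdn showed no such order.

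Ratios of reads within a library do not depend on the scaling between libraries. The log2 ratios given here and for Sln to Pln were taken after adding 1 CPM to each value, so they do depend on it. Casq2 reads per 100 Casq1 reads were 2.72 and 3.12 in RA_0, 1.00 and 0.853 in AP_1h, 3.67 and 0.428 in PLA_1h, 2.35 and 0.811 in AP_34d, and 6.62 and 0.802 in PLA_34d. The 5 libraries of low slow fibre score all had a ratio of 1.00 or less and the other 5 had 2.35 or more. Between the 4 acupuncture and 4 placebo libraries the mean log2 ratio differed by -0.58 (exact two-sided permutation p = 0.6 over 70 splits), with acupuncture at -6.43 ± 0.70 and placebo at -5.85 ± 1.82 (SD).

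Sln reads per Pln read were 14.6 and 9.74 in RA_0, 50.3 and 66.0 in AP_1h, 54.5 and 25.7 in PLA_1h, 13.95 and 9.93 in AP_34d, and 22.1 and 14.2 in PLA_34d. All 4 libraries taken at 1 h exceeded all 6 others, a split that was not among the planned comparisons and was not tested. Acupuncture and placebo differed by -0.00 on the log2 scale (exact permutation p = 1.0). With 2 libraries against 2 the exact test cannot go below 0.33, so no p is given between single groups.

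**Figure D4:**
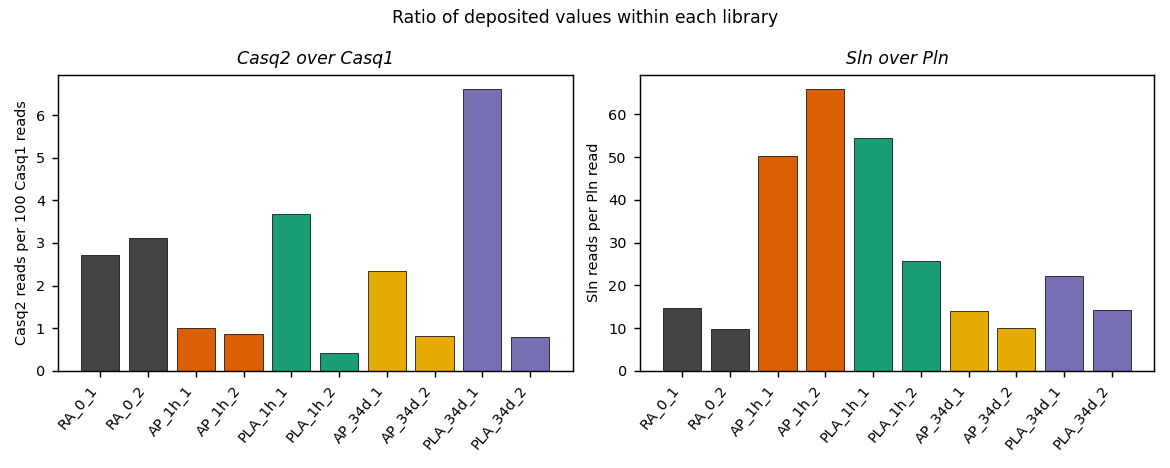
Casq2 reads per 100 Casq1 reads (left) and Sln reads per Pln read (right) in each of 10 libraries, coloured by group, bars from 0. The left ratio ran from 0.428 to 6.62 and split the replicates of 3 groups, and the right ratio was highest in the 4 libraries at 1 h.

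Among 8144 transcripts of other symbols with a mean of at least 5 CPM, the ones whose pattern over the 10 libraries was most like each member are given with Pearson's r as a description. For Casq1 they were Sypl2 (r = 0.99), Pabpc4 (0.97) and Cnih (0.93). Sypl2 encodes mitsugumin 29, a protein of the triad membranes, and ran from 688 to 2169 CPM with its highest value, like Casq1, in AP_1h replicate 2. For Casq2 they were Bbs10 (0.95), Hmgn1 (0.88) and Plxdc2 (0.87), and for Trdn Dcun1d1 (0.97), Nipa2 (0.96) and Selt (0.95). For Sln they were the galectin gene Lgals1 (0.91), Lyplal1 (0.90) and Mpzl1 (0.89). For Pln they were Swsap1 (0.95), S100a16 (0.94) and Shisa4 (0.94), and for NR_027839 of Atp2a2 Syde1 (0.97), Slc22a17 (0.91) and Usp11 (0.91). Among the members themselves the closest pairs were Casq2 with Atp2a2 (r = 0.74) and Casq1 with Sln (r = 0.71).

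The genes around the members were read from a pair of lists. The coupling list held 21 symbols of the junction between surface membrane and reticulum, of which 18 had rows and 17 were tested, on 18 rows. In every comparison 0 of the 18 rows passed the limma test. Camk2b, a subunit of the calcium and calmodulin dependent kinase that phosphorylates phospholamban, was at 4.54 and 7.14 CPM in AP_1h and between 14.3 and 20.6 in every other library. Its log2 change in AP_1h was -1.28 against RA_0 (SE 0.33, limma adjusted p = 0.241) and -1.38 against PLA_1h (SE 0.33, limma adjusted p = 0.543), and it stood 1.30 higher in AP_34d than in AP_1h (SE 0.33, limma adjusted p = 0.627). Without AP_1h replicate 1 the change against PLA_1h was -1.11 and the difference from AP_1h to AP_34d 1.02. These values are of NM_001042354, which shares its locus with other Camk2b transcripts counted apart. Tmem38b, a potassium channel of the reticulum that balances charge during release, was at 214 and 374 CPM in AP_1h and 278 and 227 in PLA_1h, against 116 and 99.5 in RA_0. Its log2 changes were 1.38 (SE 0.39, limma adjusted p = 0.296) and 1.22 (SE 0.39, limma adjusted p = 1.00). Without AP_1h replicate 1 the change in AP_1h against RA_0 was 1.79 for Tmem38b.

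The store list held 23 symbols of other store proteins, calcium buffers and extrusion pumps, of which 20 had rows and 19 were tested, and 0 were called in any comparison. Slc8a1, the sodium and calcium exchanger of the surface membrane, was at 6.84 and 7.02 CPM in AP_34d against 16.4 and 22.2 in PLA_34d, and its change on the log2 scale was -1.34 (SE 0.43, limma adjusted p = 0.846). Averaged over both times it stood at -1.11 in acupuncture against placebo (SE 0.30, limma adjusted p = 0.571), with all 4 acupuncture libraries below all 4 placebo libraries, which held downward for 1.56% of all transcripts. In PLA_34d it was 1.13 above RA_0 (SE 0.43, limma adjusted p = 0.914). Atp2b4, a calcium pump of the surface membrane, was 1.22 above RA_0 in PLA_34d (SE 0.45, limma adjusted p = 0.914) and 1.23 above PLA_1h (SE 0.45, limma adjusted p = 0.999), with 12.8 and 6.11 CPM in PLA_34d. The higher of these stood in PLA_34d replicate 1, the library with high Cd79b and Cd3e, and without it the Atp2b4 changes were 0.74 and 0.75. The Slc8a1 change at 34 days was -1.55 without that library. Averaged over both times, the Slc8a1 change was -1.21 without that library and -0.84, under 2-fold, without AP_1h replicate 1. Calm2, a calmodulin gene, was at 232 and 254 CPM in AP_34d against 398 and 622 in AP_1h, and its change on the log2 scale was -1.03 (SE 0.41, limma adjusted p = 0.906).

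Side by side, the median log2 change of the 6 members against RA_0 was -0.69 in AP_1h, -0.41 in PLA_1h, -0.81 in AP_34d and -0.80 in PLA_34d. The coupling list had medians of 0.04, -0.02, -0.18 and -0.21, and the store list 0.04, 0.07, 0.05 and 0.01, while the medians of all transcripts lay between -0.01 and 0.00. Of the members, 3 of 6 lay below 0 in AP_1h and in PLA_1h and 5 of 6 in AP_34d and in PLA_34d. Of all transcripts, 50.1% lay above 0 in AP_1h, 49.3% in PLA_1h, 49.3% in AP_34d and 49.0% in PLA_34d. The member median in AP_1h fell in a gap between Casq1 at 0.13 and Casq2 at -1.51. That in PLA_1h fell between Casq1 at 0.09 and Pln at -0.92. These medians therefore do not describe a shift of the whole set. The 6 members are those that passed the filter on low values and not all members.

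**Figure D5:**
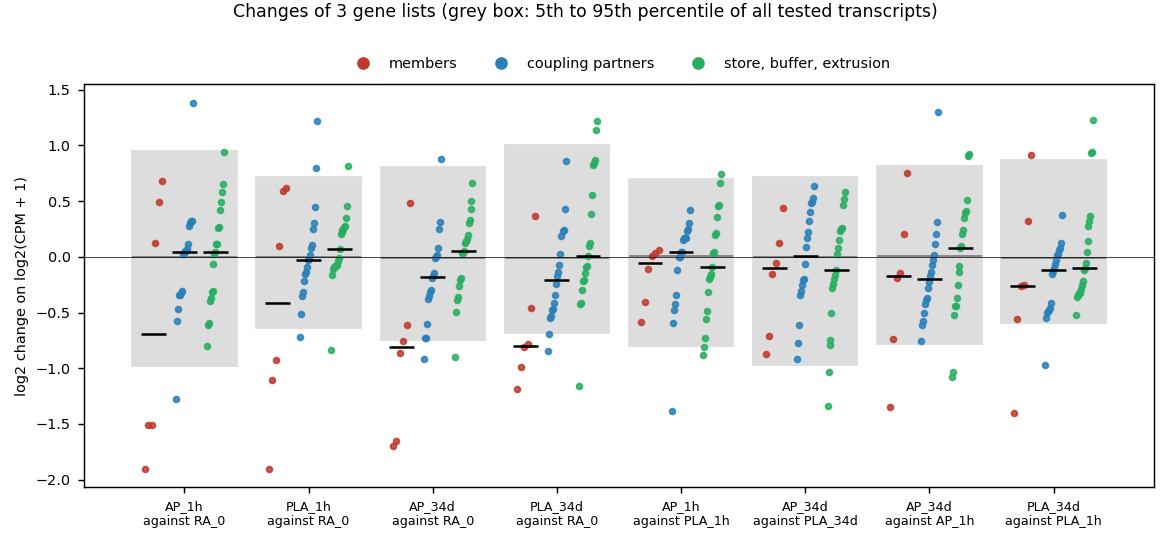
limma log2 changes (points) of the 6 tested members, the 18 coupling rows and the 19 store rows in 8 comparisons, with each list's median (black line); grey boxes span the 5th to the 95th percentile of 10259 transcripts and grey lines their median. Atp2a2, Casq2 and Pln lie below the box in every comparison with RA_0, placebo included, and these comparisons share the same RA_0 libraries. Sln lies below it in AP_34d and PLA_34d against RA_0 and in both comparisons of times.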

How the data were processed

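Tissue RNA was sequenced with a kit that does not mark strand. According to the deposited notes and the methods text, the authors trimmed reads (cutadapt 1.2.1), aligned them to rn4 (Bowtie2 2.1.0), counted them per transcript, leaving out reads shared by overlapping transcripts (HTSeq 0.5.4p3), and deposited TMM-scaled CPM (edgeR 3.4.2), a normalised signal and not counts. Base calling used CASAVA 1.8.2. Deposited values were whole multiples of what 1 read is worth (100% within 0.01 reads), which gave back reads and depth.

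A transcript was kept where some group had 1 CPM or more in each library (10259 of 17221, 59.6%). Groups came from the labels. limma 3.58.1 (R 4.3.3) with a mean trend was fitted to log2(CPM + 1) of all 10 libraries with 1 mean per group (5 residual degrees of freedom), adjusted by Benjamini-Hochberg over all transcripts. The pseudocount of 1 makes fold changes of low genes too small. The scripts were tested on simulated data. Relations used 100000 permutations. Alternatives were other pseudocounts, filters, scalings, limma-voom, edgeR 4.0.16 and DESeq2 1.42.0 on recovered reads, a replicate block, left-out libraries and, chosen after seeing the data, the slow fibre score as a covariate. The members and lists were chosen with earlier results of these data known. Of the members, all are named; changes are printed where they were called, met the study's rule or reached 1 on the log2 scale, and partner genes where they met that rule, up to 4 per list by unadjusted p. The planned ratio of Atp2a2 to Atp2a1 was not made. Replicates are separate rats. A marker gene of the lists is not reported here.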

Additional observations from a re-analysis of the deposited data

How the results depend on the processing

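The count of members called stayed at 0 in the 11 tests under the alternatives run, except that it was 1 in AP_1h against RA_0 when the compared groups were fitted alone (Atp2a2, limma adjusted p = 0.0353), a fit made only for the 8 comparisons of 2 groups. The Casq2 change against RA_0 turned to 1.11 in AP_1h and 0.66 in PLA_1h with the slow fibre score as a covariate, a score that did not overlap between RA_0 and these groups. The Casq2 change ran from -2.36 to 0.16 in PLA_1h when a PLA_1h library was left out (positive without PLA_1h replicate 2). The cause was not tested. Of 12 relations to fibre scores, 0 passed as reported, 3 under quantile normalization, and 0 to 1 when single libraries were left out (1 without AP_34d replicate 1 and 1 without PLA_34d replicate 1). Under quantile normalization r was 0.81 for Casq2 and 0.83 for Atp2a2 with the slow score (adjusted permutation p = 0.0424 and 0.0286), 0.80 for Pln and -0.31 for Casq1 with the fast score. With single libraries left out r ran from 0.73 to 0.85 for Casq2, 0.70 to 0.90 for Atp2a2, 0.58 to 0.78 for Casq1 and 0.66 to 0.84 for Pln. The acupuncture minus placebo log2 ratio of Casq2 to Casq1 ran from -1.24 to 0.066 with single libraries left out, turning positive without PLA_34d replicate 1, and that of Sln to Pln, near 0 as reported, was 0.0094 with a pseudocount of 0.25 and ran from -0.42 to 0.45 with single libraries left out.

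The replicate numbers were not treated as pairs, since the labels name no shared litter or day. Deviations of same-numbered libraries from their group means correlated between -0.46 and 0.45 over 10 pairs of groups. With 2 libraries a group this cannot tell whether same-numbered rats shared a litter or day. With the replicate number as a block 0 members were called. With 2 libraries a group and 374 and 542 reads in all for Pln and Atp2a2, many intervals of these members include a 2-fold difference.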
